A study of Mus musculus with 6 samples.

Results

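Transforming growth factor beta (TGF-beta) transcripts were followed through 9 genes of 14515 measured by RNA sequencing of muscle stem cells (satellite cells) from mice. They were chosen by symbol from the pathway: the ligands Tgfb1, Tgfb2 and Tgfb3, the latency protein Ltbp1, the receptors Tgfbr1, Tgfbr2 and Tgfbr3, the induced inhibitor Smad7 and the matrix gene Fn1. All 9 were present, 1 row each, and all 9 passed the filter on low values. There were 6 libraries, 2 labelled wild type (wt), 2 labelled mdx and 2 labelled mdx/Ripk3mKO. The mdx strain carries a mutation in the dystrophin gene Dmd and is the standard mouse model of Duchenne muscular dystrophy. Ripk3 encodes a kinase required for necroptosis, and what mKO stands for, what drives it and the animals' age are not stated in the labels. The sources also disagree on the cells. The sample labels name satellite cells at rest, sorted and used at once, with 10000 to 20000 cells a library. The series text names activated wild-type cells kept for 72 hours under an insert holding wt, mdx or mdx/Ripk3mKO cells, in which case the genotype is that of the neighbouring cells. Group names below are therefore those of the labels. Nothing says whether the 2 libraries of a group come from separate animals, and the p-values speak only for the scatter of these libraries, part of which may be technical.

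TGF-beta ligands are secreted as latent dimers, held by their propeptides and bound through LTBP proteins to the extracellular matrix. Once released, a ligand binds the type II receptor Tgfbr2, which activates the type I receptor Tgfbr1, with Tgfbr3 (betaglycan) presenting ligand to them. The receptors phosphorylate Smad2 and Smad3, which enter the nucleus with Smad4 and drive genes such as Smad7, a feedback inhibitor, and matrix genes such as Fn1. In muscle, TGF-beta is known to hold back myoblast differentiation and to promote fibrosis in dystrophic tissue.

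No TGF-beta member passed the threshold in any comparison of labelled groups. The value nearest to it was Tgfb2, lowest in both mdx/Ripk3mKO libraries and highest in both mdx libraries, at 0.768-fold of mdx in mdx/Ripk3mKO. Ltbp1 was lowest in both mdx libraries and Fn1 highest in both, also short of the threshold. Of all genes 9.65% were likewise highest in both mdx libraries, 10.9% lowest in both, and 7.52% lowest in both mdx/Ripk3mKO libraries. Smad7, Tgfbr1 and Tgfbr2 each stayed within a factor of 1.15 (Tgfbr1), 1.09 (Tgfbr2) and 1.13 (Smad7) from the lowest to the highest of the 6 libraries. The transcripts differed far more between genes than between groups: per kilobase of exon Ltbp1 averaged 828 scaled counts and Tgfbr3 6.80.

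The windows upstream of 3 members are shown because they belong to 2 ligands whose values behaved differently over the libraries, as described below for each, and to the most abundant member, Ltbp1. Each is the 250 bases before a RefSeq start (for Ltbp1, the upstream of 2 starts), 5′ to 3′ on the gene's strand, from RefSeq (GRCm38.p6, the assembly called mm10). Capitals mark GGGCGG (the GC box bound by Sp1), TATAAA (the TATA box) and TGACG (the core of the cyclic AMP response element), on either strand. Tgfb1 lies at chr7:25686752-25687001 (plus strand), Tgfb2 at chr1:186705990-186706239 (minus strand) and Ltbp1 at chr17:75005279-75005528 (plus strand).
Tgfb1: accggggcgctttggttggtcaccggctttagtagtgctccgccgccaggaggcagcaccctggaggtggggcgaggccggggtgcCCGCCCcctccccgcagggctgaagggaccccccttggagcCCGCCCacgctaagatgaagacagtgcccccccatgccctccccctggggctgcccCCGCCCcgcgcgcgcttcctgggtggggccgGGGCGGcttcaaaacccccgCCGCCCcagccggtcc
Tgfb2: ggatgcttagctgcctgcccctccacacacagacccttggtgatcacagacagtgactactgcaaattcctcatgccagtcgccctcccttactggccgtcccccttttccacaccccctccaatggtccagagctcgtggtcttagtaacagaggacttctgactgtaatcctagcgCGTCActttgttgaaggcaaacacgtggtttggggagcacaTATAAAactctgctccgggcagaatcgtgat
Ltbp1: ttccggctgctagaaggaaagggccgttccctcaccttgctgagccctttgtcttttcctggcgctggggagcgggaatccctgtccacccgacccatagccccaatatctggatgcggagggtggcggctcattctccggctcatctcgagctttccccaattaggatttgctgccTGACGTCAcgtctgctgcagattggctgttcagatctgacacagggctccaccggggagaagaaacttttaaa

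The Tgfb1 window held 5 GGGCGG matches and no TATAAA, and 75.2% of its bases were G or C, a share above that of 96.1% of 32851 windows of this length. In the Tgfb2 window there was TATAAA at bases -31 to -26 from the start and TGACG, read as CGTCA, at -72 to -68, with a G and C share of 53.6%. Ltbp1 held the full palindrome TGACGTCA at -73 to -66, in which 2 TGACG matches overlap. Among all windows 32.7% held GGGCGG, 12.4% TATAAA, 17.8% TGACG and 1.55% TGACGTCA. CAGACA, which is longer than the CAGAC core that Smad proteins bind, was in 17.1% of all windows. It was found once in that of Tgfb2 and in neither of the other windows shown. The shorter CAGAC was not counted over all windows. It also stands in the Ltbp1 window, read as GTCTG, and again in that of Tgfb2, followed there by C. These matches describe letters and are not evidence of binding. Promoter entries were matched for 5 of the 9 members, Tgfb1, Tgfb2, Tgfbr1, Tgfbr2 and Ltbp1.

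The deposited values are read counts scaled between libraries and rounded, called scaled counts here, and their totals ran from 20611974 to 21037153 a library. The satellite cell marker Pax7 lay between 84.6 and 103 CPM (each scaled count divided by its library's total, on the usual scale). The differentiation factor Myog lay between 1300 and 1698 CPM and embryonic myosin Myh3 between 5339 and 7808. Genes of differentiating muscle cells were thus abundant in every library, so the levels of the members are not those of resting cells alone. Of 8 satellite cell markers 6 were among the genes measured, and Calcr, which marks resting cells, was not. Every gene the authors deposited reached at least 10 scaled counts in some library. A gene absent from that set may therefore have been too low to be kept. Of 11 fibroblast markers 4 were, with the receptor Pdgfra at 1.16 to 1.55 CPM and the matrix genes Dcn and Lum not among the genes. Of 10 macrophage markers 3 were, with a summed level of 2.17 to 2.76 CPM in wt, 1.86 to 2.04 in mdx and 1.90 to 2.65 in mdx/Ripk3mKO, and of 7 endothelial markers 4 were, with 1.54 to 2.38 CPM over all libraries. Ripk3, the gene named in the label, had 45 and 32 (wt), 23 and 36 (mdx) and 17 and 33 (mdx/Ripk3mKO), so its whole-gene value does not check the labels. Dmd had 324 and 432 (wt), 531 and 692 (mdx) and 474 and 294 (mdx/Ripk3mKO), highest in both mdx libraries. Which genotype the sequenced cells carried was not tested. Library 1 of mdx/Ripk3mKO stood apart, with 6918 scaled counts of the X-silencing RNA Xist against 164 to 666 elsewhere and 373 of the Y-linked Ddx3y against 1543 to 1785. In bulk RNA, fewer cells of a type and less RNA per cell cannot be told apart.

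Ordered by level per length, the mean scaled count per kilobase of exon fell from Ltbp1 (828) through Tgfb3 (565), Fn1 (439), Tgfbr1 (204), Tgfb2 (199), Smad7 (136), Tgfbr2 (89.3) and Tgfb1 (69.2) to Tgfbr3 (6.80). Neighbours in this order did not overlap over the 6 libraries, except Tgfb3 with Fn1 and Tgfbr1 with Tgfb2. Fn1 exceeded Tgfb3 in mdx library 2 alone, and Tgfb2 exceeded Tgfbr1 in both mdx libraries and in no other. Ltbp1 stood above 91.8% of all genes per length, Tgfb3 above 87.6%, and Tgfbr3 above 12.2%. These exon lengths come from GENCODE M21 and count every annotated exon, so genes with unused exons read low.

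**Figure D1:**
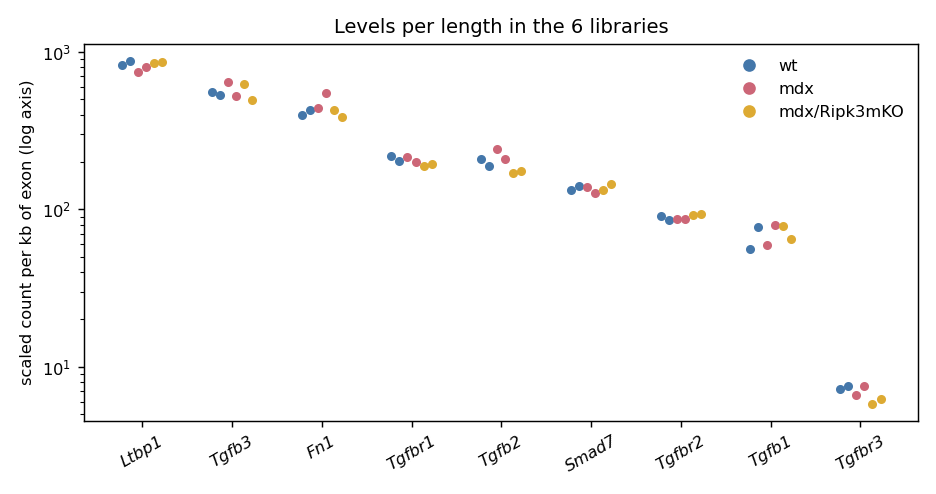
Scaled count per kilobase of exon (log axis) for the 9 members, ordered by mean, with 1 point for each of the 6 libraries coloured by label. Tgfb3 lies above Tgfb2 and Tgfb1 in every library, and Tgfbr3 lies lowest at 5.81 to 7.49.

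The ligands share receptors, and Tgfb3 made up most of their transcripts. Its share of the summed ligand level per kilobase ran from 64.7% to 71.6%. Tgfb2 supplied 25.3% and 23.8% (wt), 25.5% and 25.6% (mdx) and 19.4% and 23.8% (mdx/Ripk3mKO). Tgfb1, the isoform best known in fibrosis, supplied 6.31% to 9.72%. These shares divide by all annotated exon bases, 5042 for Tgfb1 and 3383 for Tgfb3, so exons that are not used would lower a share. With 2 libraries against 2, an exact permutation test of a share cannot give a two-sided p below 0.333, so shares are given as values.

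Tgfb2 (ENSMUSG00000039239, mm10 chromosome 1, 186622792 to 186705989), a ligand with major roles in development, had scaled counts of 1206 and 1100 (wt), 1395 and 1214 (mdx) and 983 and 1015 (mdx/Ripk3mKO). The 3 groups did not overlap: both mdx libraries were highest and both mdx/Ripk3mKO libraries lowest. Between mdx/Ripk3mKO and mdx the difference in log2(scaled count + 1) was -0.38 ± 0.08 (standard error; 95% interval -0.54 to -0.22; limma, adjusted p = 0.0657), which is 0.768-fold. Across the alternative settings it lay between -0.48 and -0.28, with adjusted p from 0.0530 to 0.468. Leaving out mdx/Ripk3mKO library 1 gave -0.36 (adjusted p = 0.0868). Against wt, mdx stood 0.18 ± 0.08 higher (adjusted p = 0.743) and mdx/Ripk3mKO was at -0.21 ± 0.08 (adjusted p = 1). Without mdx library 1 the difference between mdx and wt was 0.076, without mdx library 2 it was 0.28, and without wt library 2 it was 0.11. An exon of the antisense gene Gm29491 shares 124 bases with Tgfb2, and the labels do not say whether counting used strand.

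Tgfb1 (ENSMUSG00000002603, chromosome 7, 25687002 to 25705077) split every group. It had scaled counts of 282 and 387 (wt), 301 and 401 (mdx) and 396 and 327 (mdx/Ripk3mKO). In each label 1 library lay between 387 and 401 and the other between 282 and 327. Its pooled standard deviation within groups was 0.27 on the log2 scale, against a median of 0.096 over all 14077 tested genes. Counting alone would give a coefficient of variation of 5.35% if scaled counts were reads, and the 6 libraries varied by 15.0%. The intervals are correspondingly wide, -0.41 to 0.55 for mdx minus wt and -0.43 to 0.53 for mdx/Ripk3mKO minus mdx.

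Tgfb3 (ENSMUSG00000021253, chromosome 12, 86056745 to 86079041) had scaled counts of 1889 and 1799 (wt), 2184 and 1791 (mdx) and 2120 and 1677 (mdx/Ripk3mKO). The groups overlapped, with library 1 of mdx and of mdx/Ripk3mKO highest. Summed myoblast and myocyte markers (9 of 9 measured, led by embryonic myosin Myh3 and skeletal actin Acta1) were also highest in those libraries, at 17920 and 17242 CPM against 15610 and 15001 in wt, 16136 in mdx library 2 and 13904 in mdx/Ripk3mKO library 2. Other members of that list went another way: the early factor Myod1 was lowest in both mdx libraries (926 and 904 CPM) and highest in mdx/Ripk3mKO library 2 (1137), Myog was highest in wt library 1 (1698), and neonatal myosin Myh8 was highest in both mdx libraries (1018 and 924, against 437 to 648). Their part in the Tgfb3 values was not tested. For mdx minus wt, log2 Tgfb3 differed by 0.10 ± 0.14 (adjusted p = 0.942, limma). Tgfb3 shares 257 exon bases with Gm48008 and 163 with Gm37804, models on the opposite strand that were not among the genes measured.

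Ltbp1 (ENSMUSG00000001870, chromosome 17, 75005568 to 75391767), a secreted protein that binds latent TGF-beta, aids its secretion and anchors it to matrix, had scaled counts of 8874 and 9371 (wt), 7941 and 8593 (mdx) and 9137 and 9228 (mdx/Ripk3mKO). Both mdx libraries were below the other 4. The log2 difference was -0.14 ± 0.05 for mdx minus wt (95% interval -0.26 to -0.03; limma, adjusted p = 0.658) and 0.15 ± 0.05 for mdx/Ripk3mKO minus mdx (adjusted p = 0.289). These comparisons share the mdx libraries, so their opposite signs are not separate evidence. Between mdx/Ripk3mKO and wt the value was 0.010 ± 0.053, with an interval of -0.10 to 0.12. Leaving out mdx library 1 gave -0.086 for mdx minus wt, and leaving out mdx library 2 gave -0.20. For mdx/Ripk3mKO minus mdx, the value was 0.096 without mdx library 1, 0.21 without mdx library 2 and 0.16 without mdx/Ripk3mKO library 1.

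**Figure D2:**
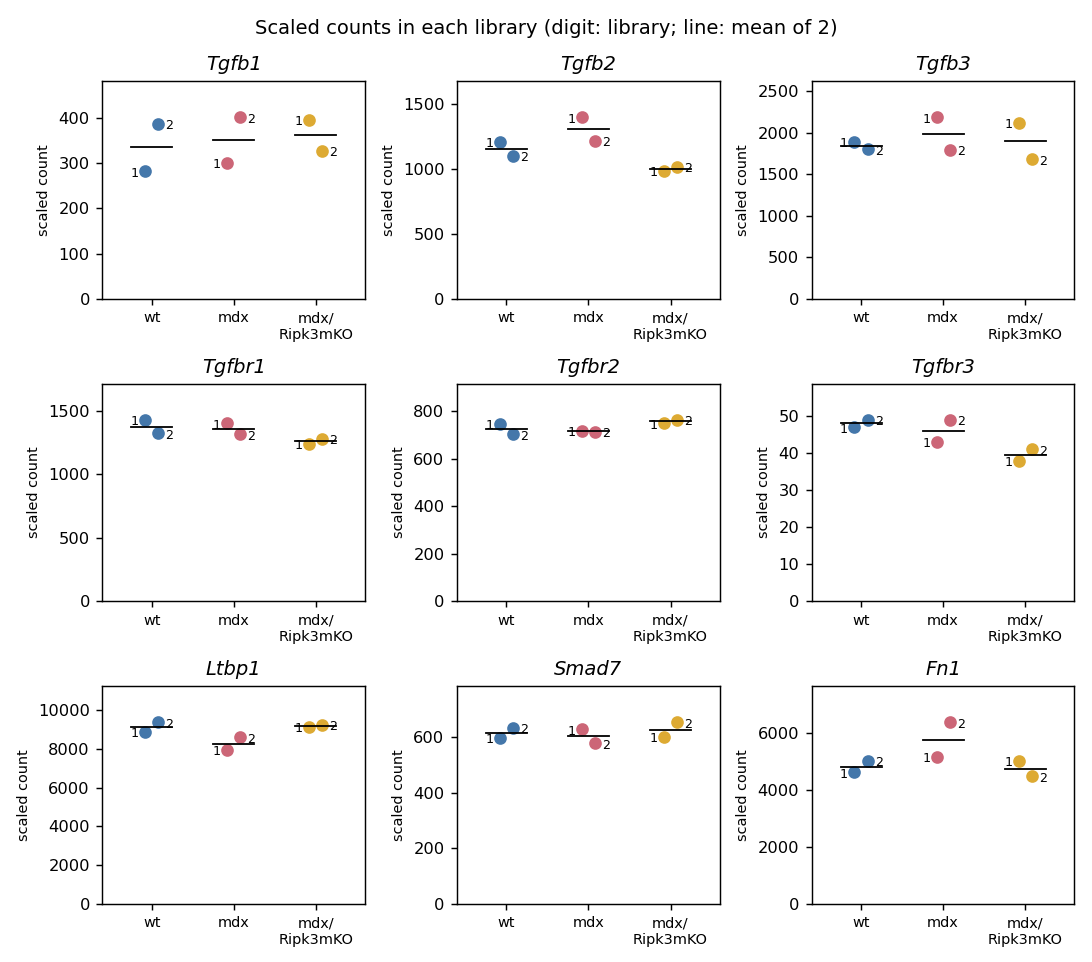
Scaled counts (linear axes from 0) of the 9 members in each library, by label, with the library number beside each point and a line at the mean of 2. Tgfb2 lies lowest at 983 and 1015 in mdx/Ripk3mKO, and Tgfb1 splits within every label.

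The signalling receptors Tgfbr1 and Tgfbr2 varied little. Tgfbr1 (ENSMUSG00000007613, chromosome 4, 47353222 to 47414931), the kinase that phosphorylates Smad2 and Smad3, had scaled counts of 1430 and 1322 (wt), 1401 and 1316 (mdx) and 1240 and 1278 (mdx/Ripk3mKO). Both mdx/Ripk3mKO libraries were lowest, with a log2 difference of -0.13 ± 0.07 from wt (limma, adjusted p = 1), and -0.11 without mdx/Ripk3mKO library 1. Leaving out wt library 1 gave -0.071, and leaving out wt library 2 gave -0.18. Against mdx the difference was -0.11, and -0.064 without mdx library 1. For mdx minus wt the 95% interval of Tgfbr1 ran from -0.16 to 0.12.

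Tgfbr2 (ENSMUSG00000032440, chromosome 9, 116084293 to 116175360), the ligand-binding kinase, had scaled counts of 746 and 702 (wt), 716 and 712 (mdx) and 749 and 763 (mdx/Ripk3mKO). It was highest in both mdx/Ripk3mKO libraries, as 7.37% of all tested genes were. The difference from mdx was 0.08 ± 0.07 (adjusted p = 0.707, limma), and 0.096 when library 1 of mdx/Ripk3mKO was left out. Over wt it was 0.06, moving to 0.11 without wt library 1 and 0.019 without wt library 2. Tgfbr2 held 31.9% and 31.6% of the summed receptor level per kilobase in mdx/Ripk3mKO against 28.7% and 29.0% in wt and 28.4% and 29.4% in mdx. Over the 6 libraries it had the smallest coefficient of variation of the members, 3.35%, below the 3.70% that counting would give if scaled counts were reads.

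Tgfbr3 (ENSMUSG00000029287, chromosome 5, 107106570 to 107289629) was scarce and had scaled counts of 47 and 49 (wt), 43 and 49 (mdx) and 38 and 41 (mdx/Ripk3mKO). Both mdx/Ripk3mKO libraries were lowest, and the difference from wt was -0.28, with a 95% interval of -0.75 to 0.20, and -0.22 when library 1 of mdx/Ripk3mKO was left out. The 6 libraries varied by 10.2%, where counting would give 15.0% if scaled counts were reads. Against mdx the difference was -0.21, and -0.12 without mdx library 2. It shares 297 exon bases with Gm43422, a model on the same strand.

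Smad7 (ENSMUSG00000025880, chromosome 18, 75367529 to 75395935), the inhibitor that Smad3 induces, had scaled counts of 598 and 633 (wt), 628 and 577 (mdx) and 600 and 653 (mdx/Ripk3mKO). Its groups overlapped in every comparison. The 95% intervals were -0.20 to 0.14 for mdx minus wt, -0.12 to 0.23 for mdx/Ripk3mKO minus mdx, and -0.15 to 0.20 for mdx/Ripk3mKO minus wt. The signs of its differences changed when GC content and exon length were adjusted for, where all lay between -0.013 and 0.0087.

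Fn1 (ENSMUSG00000026193, chromosome 1, 71585520 to 71653200) encodes fibronectin, a matrix glycoprotein and a component of the satellite cell niche. It had scaled counts of 4624 and 5038 (wt), 5179 and 6394 (mdx) and 5035 and 4490 (mdx/Ripk3mKO). Both mdx libraries were highest, although mdx library 1 exceeded wt library 2 by little. The log2 difference was 0.25 ± 0.11 for mdx minus wt (95% interval -0.01 to 0.52; limma, adjusted p = 0.780). Without mdx library 2 it was 0.10, and without mdx library 1 it was 0.41. For mdx/Ripk3mKO minus mdx it was -0.28 ± 0.11 (adjusted p = 0.417), and leaving out library 1 of mdx/Ripk3mKO gave -0.36. This value depended on the mdx libraries, at -0.12 without mdx library 2 (adjusted p = 0.743) and -0.43 without mdx library 1 (adjusted p = 0.0630, limma). The interval for mdx/Ripk3mKO minus wt was -0.29 to 0.24. Summed fibroblast markers, nearly all of them the actin-severing Gsn, were at 185 and 189 CPM (wt), 184 and 200 (mdx) and 239 and 181 (mdx/Ripk3mKO). Of 8 pericyte and smooth muscle markers 6 were measured, and their sum, mostly Acta2, was 2608 and 2117 CPM (wt), 2707 and 2000 (mdx) and 2544 and 2374 (mdx/Ripk3mKO). Within that list Pdgfrb was highest in both mdx libraries (19.5 and 21.5 CPM against 12.0 to 16.04), as was Abcc9 (48.0 and 49.97 against 29.6 to 44.1), and Cspg4 was lowest in both (64.4 and 57.5 against 77.5 to 85.4). The part of these cell types in the Fn1 values was not tested. Fn1 shares 292 exon bases with the antisense model Apol7d, which was not among the genes measured.

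**Figure D3:**
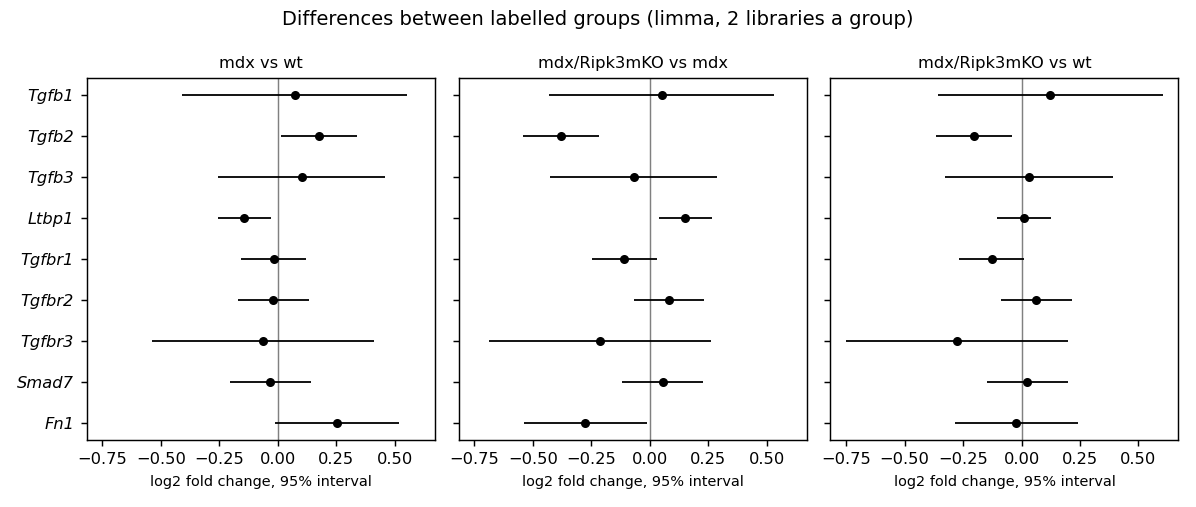
Log2 fold change with 95% interval (limma) of each member in the 3 comparisons, from 2 libraries a group. The interval of Tgfb2 lies furthest from 0, at -0.54 to -0.22 for mdx/Ripk3mKO against mdx, and those of Tgfb1 and Tgfbr3 are widest.

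Counted over the members, 0 of 9 were called between mdx and wt at an adjusted p under 0.05 (limma), where 0.0071% of 14077 genes were called. At an unadjusted p under 0.05 there were 2 (background 6.46%), Tgfb2 and Ltbp1, and 3 of 9 did not overlap between groups (background 35.9%). Between mdx/Ripk3mKO and mdx 0 of 9 were called (background 0.206%), 3 had an unadjusted p under 0.05 (background 11.6%), Tgfb2, Ltbp1 and Fn1, and 6 did not overlap (background 41.3%), 2 of them higher (background 21%) and 4 lower (background 20.3%). Between mdx/Ripk3mKO and wt 0 were called (background 0%), 1 had an unadjusted p under 0.05 (background 3.32%), Tgfb2, and 4 did not overlap (background 29.4%). The median log2 difference of the members was -0.02, -0.07 and 0.01 in these comparisons, against -0.0022, -0.0021 and 0.0012 over all genes. In the F-test over the 3 labels 0 of 9 were called (limma, background 0.0781%), and Tgfb2 (adjusted p = 0.183) and Ltbp1 (adjusted p = 0.530) had an unadjusted p under 0.05 (background 7.87%).

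The wider pathway was read from lists of 90 genes, of which 84 were tested. Between mdx and wt 43 were higher and 41 lower, and none passed (limma; 9 had an unadjusted p under 0.05). Col1a1, a fibrillar collagen outside the naming rule, passed there when the fit held these 2 groups only or lacked either mdx/Ripk3mKO library. Between mdx/Ripk3mKO and mdx 42 were higher and 42 lower, and 1 passed, the higher Thbs1 (background of calls in that direction 0.0852%), with 18 at an unadjusted p under 0.05. Between mdx/Ripk3mKO and wt 44 were higher and 40 lower, and none passed (2 at an unadjusted p under 0.05). Without mdx/Ripk3mKO library 2, Col1a1 passed as higher (286 in library 1 against 40 and 41 in wt). The proteoglycan gene Bgn passed there as lower (1328 against 2079 and 1875). Of all tested genes 6.46%, 11.6% and 3.32% had an unadjusted p under 0.05 (limma) in these comparisons, in the same order. The shares of all tested genes that were higher were 49.0%, 49.2% and 50.5%. Medians over the 84 genes were 0.0048, -0.0041 and 0.0074.

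Thrombospondin 1 (Thbs1), a matrix protein that can release active TGF-beta from its latent complex, rose by 0.27 ± 0.05 on the log2 scale in mdx/Ripk3mKO against mdx (limma, adjusted p = 0.0473). It had scaled counts of 35940 and 34153 (wt), 32098 and 30023 (mdx) and 37146 and 37503 (mdx/Ripk3mKO). The call did not hold without either wt library, either mdx library or mdx/Ripk3mKO library 2 (adjusted p from 0.102 to 0.367), nor with GC and length adjustment (0.0653), quantile normalization (0.0773), 2 groups in the fit (0.204) or no variance trend and no robust fitting (0.468). The value itself lay between 0.22 and 0.31 in every setting.

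Among the other 15 tested genes of latency and activation, the most abundant beside Ltbp1 were Itgb1, the beta subunit of many matrix integrins, at 21293 to 23511 scaled counts, and Furin, the protease that cleaves TGF-beta propeptides. Furin had scaled counts of 6249 and 5772 (wt), 5384 and 5113 (mdx) and 6374 and 6179 (mdx/Ripk3mKO). It was lowest in both mdx libraries, as Ltbp1, Thbs1 and 10.9% of all genes were. Its adjusted p (limma) was 0.486 for mdx minus wt and 0.0796 for mdx/Ripk3mKO minus mdx. Of all 16 tested genes of this list, 9 were higher in mdx than in wt and 7 lower (median 0.03). Of 9 receptors and co-receptors the most abundant beside the members were Cd109, which binds TGF-beta and dampens its signal (1153 to 1606), the adaptor Dab2 (1237 to 1372) and the receptor-associated Tgfbrap1 (856 to 963). None passed.

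Of 19 Smads and regulators 15 were lower in mdx than in wt (median -0.03) and 14 were higher in mdx/Ripk3mKO than in mdx (median 0.04), with none past the threshold. Of all genes 49.0% and 49.2% were higher in these comparisons, which share the mdx libraries, so the opposite directions are not separate evidence. Its most abundant genes were Fkbp1a, whose product holds Tgfbr1 inactive (7934 to 8860), the Smad7 partner Strap (5406 to 5761) and Skil, a repressor of Smad targets (4571 to 5353). Of 34 tested response genes 18 were higher in mdx than in wt and 17 higher in mdx/Ripk3mKO than in mdx, where only Thbs1 passed. Smooth muscle actin Acta2 was the most abundant, at 35974 to 51960, and the cell cycle inhibitor Cdkn1a lay between 16916 and 19534. Of 10 genes of the myostatin and activin arm, 8 had lower values in mdx/Ripk3mKO than mdx (median -0.12), where 7137 of all 14077 genes did, and none passed the threshold, with the receptor Acvr2a at 1045 to 1186, the follistatin-like Fstl1 at 910 to 1125 and the ligand Gdf11 at 702 to 896.

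**Figure D4:**
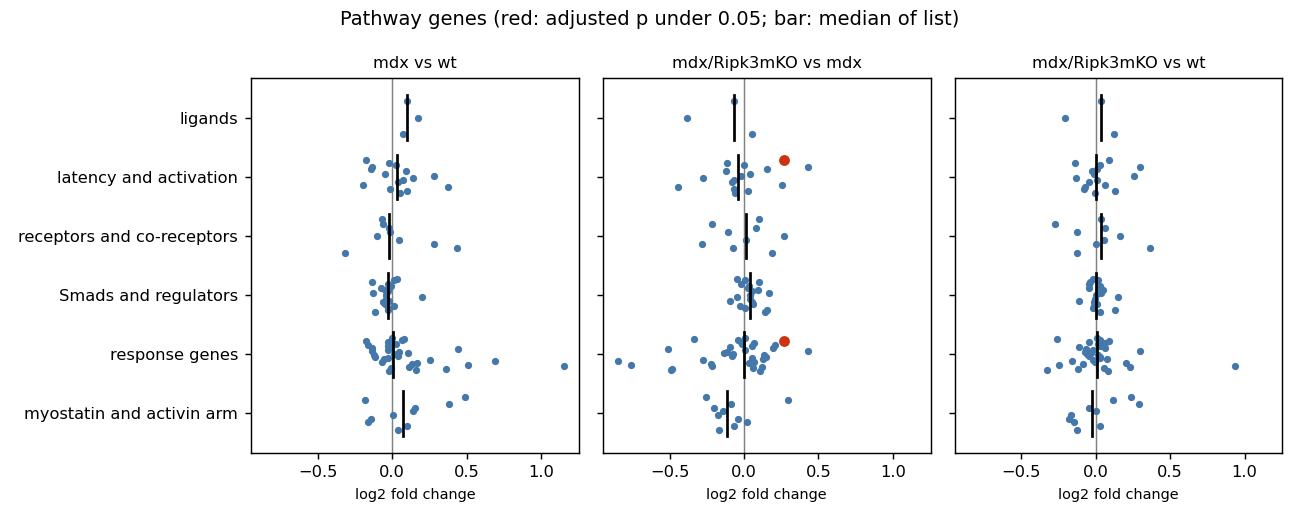
Log2 fold change of each tested gene of the 6 pathway lists in the 3 comparisons, with a bar at the median of each list and red for an adjusted p under 0.05 (limma). Medians lie between -0.12 and 0.10, and Thbs1, which is in 2 lists, is the only gene in red.

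Genes most like a member across the 6 libraries were sought by the root mean square difference of centred log2 values, for the most variable member of each role. For Tgfb1 these were the adrenomedullin receptor subunit Calcrl (0.058), Kctd12 (0.073) and the homeobox gene En1 (0.074). Calcrl had scaled counts of 81 and 118 (wt), 93 and 112 (mdx) and 120 and 102 (mdx/Ripk3mKO), split in each label in the same libraries as Tgfb1. For Tgfbr3 they were the centromere protein Cenpl (0.022), the p53 regulator Mdm4 (0.036) and the chromatin protein Mtf2 (0.036). For Fn1 they were the glycosyltransferase Alg6 (0.043), the tetraspanin Tspan7 (0.047) and the receptor Fgfrl1 (0.050). These are the closest of 9645 genes over 6 libraries that share their scaling, and they describe likeness only.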

How the data were processed

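The authors deposited 1 table of read counts per gene, scaled between libraries and rounded, used here as a score. The evidence is in the file. Size factors recomputed from the scores lay between 1.0019 and 1.00229. Between 5 and 60 some whole numbers were held by no gene in each wt and mdx library but in neither mdx/Ripk3mKO library. In mdx/Ripk3mKO 12 and 11 numbers were instead held by far more genes than the mean of their neighbours, against 0 to 3 in each wt and mdx library. These patterns follow the label, and whether read depth differed by label was not tested. Per the submitters' processing notes the tools were Trimmomatic 0.36, STAR 2.6.1d, featureCounts 1.6.3 and DESeq2 1.18.1 with build mm10, in roles not given. Read depth was not recovered from the rounded values, and precision here comes from the spread between libraries. Both mdx columns carry 1 header and are numbered in column order, as names only.

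Values were analysed as log2(scaled count + 1) with limma 3.58.1 in R 4.3.3 (statmod 1.5.0), in 1 fit over 6 libraries with 3 residual degrees of freedom, a variance trend and robust fitting. The filter was a scaled count of 10 or more in 2 or more libraries (14077 genes tested, 438 left out), with Benjamini-Hochberg adjustment over all of them and a threshold of 0.05. Fold changes on this scale understate those of low genes, and ± is the moderated standard error. Exon lengths and GC content came from GENCODE M21 for 14502 genes, and TMM factors were computed directly from their formula. On simulated counts for mdx against wt (14077 genes, 3 runs) the fit recovered 93.2% of 219 genes changed 1.5-fold. At 2-fold it recovered 99.5% of 191. These shares do not say what could be missed among the members. Tgfb1, for one, had a log2 standard deviation within groups of 0.27, against a median of 0.096 over tested genes.

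The members and lists were chosen with earlier results of these data known. Named are all 9 members, the 3 most abundant other genes of each list, called genes, and the 3 genes most like the most variable member of each role (mean of at least 5 CPM). Alternatives were other pseudocounts, no filter, other scalings, no trend or robust fitting, fits of 2 groups, correction for GC content and length, a replicate block, and each library left out.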

Additional observations from a re-analysis of the deposited data

How the results depend on the processing

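Under each alternative, in every comparison it applies to, 0 members were called. Of 27 differences (9 members in 3 comparisons), 13 kept their sign under all alternatives, including every Tgfb2 difference and those of Ltbp1 and Fn1 that involve mdx. Quantile normalization turned Ltbp1 in mdx/Ripk3mKO against wt to -0.0026. Correction for GC content and exon length turned Smad7 to 0.0087 in mdx against wt, -0.013 in mdx/Ripk3mKO against mdx and -0.0039 in mdx/Ripk3mKO against wt. With 1 library left out, signs changed within these ranges. In mdx against wt they were -0.16 to 0.30 for Tgfb1, -0.042 to 0.24 for Tgfb3, -0.075 to 0.039 for Tgfbr1, -0.063 to 0.024 for Tgfbr2, -0.15 to 0.029 for Tgfbr3 and -0.092 to 0.030 for Smad7. In mdx/Ripk3mKO against mdx they were -0.16 to 0.26 for Tgfb1, -0.24 to 0.10 for Tgfb3 and -0.0047 to 0.12 for Smad7. In mdx/Ripk3mKO against wt they were -0.10 to 0.35 for Tgfb1, -0.14 to 0.20 for Tgfb3, -0.029 to 0.049 for Ltbp1, -0.036 to 0.086 for Smad7 and -0.10 to 0.061 for Fn1. The cause was not tested. A group with 1 library left is assumed to vary like the others.

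With the replicate number as a block, possible only for mdx/Ripk3mKO against wt because the mdx columns carry no separate numbers, 0 members were called, and the differences did not move (Tgfb2 -0.21). The library differences of the 2 groups had a correlation of -0.011 across 14077 genes. This cannot decide whether libraries of the same number were prepared together, since scatter of single genes can hide it. Of the pathway genes, 4 were called in mdx/Ripk3mKO against mdx when fitted without mdx/Ripk3mKO library 1 (Thbs1, Cd109, Col1a1 and Mstn) and 2 without library 2 (Bgn and Col1a1), against 1 with all libraries. Over all 14077 genes the calls went from 29 to 278 without library 1 and to 28 without library 2. In mdx against wt Col1a1 was called with 2 groups in the fit and without either mdx/Ripk3mKO library (103 genes over all in each, against 1), and in mdx/Ripk3mKO against wt Bgn and Col1a1 were called without mdx/Ripk3mKO library 2 (20 genes over all, against 0). Col1a1, a collagen named after its values were seen, was at 40 and 41 (wt), 87 and 96 (mdx) and 286 and 21 (mdx/Ripk3mKO). Against mdx, Col1a1 was thus lower without mdx/Ripk3mKO library 1 and higher without library 2, so its calls there had opposite signs.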
